A study of Homo sapiens with 6 samples.

Results

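The genes described here are 10 members of the hypoxia-inducible factor (HIF) pathway, out of 58735 genes in the count table: the alpha subunits HIF1A and EPAS1, their partner ARNT, the oxygen sensors EGLN1 and EGLN3, the recognition subunit VHL, and the targets VEGFA, CA9, CA12 and ADM. They were selected on the result for EPAS1 (HIF-2 alpha), whose fall was among the most significant when AS1842856 was compared with DMSO, so the rule used the very contrast described below. The differences between the groups are therefore given for the members as a description, with no p-value. RNA-Seq was done in BT549 cells, an established basal-like breast cancer line, with 3 libraries from cells given DMSO (the solvent control) and 3 from cells given AS1842856, both for 48 h. AS1842856 is used as an inhibitor of FOXO1, a forkhead transcription factor. The study describes it as binding unphosphorylated FOXO1 and blocking direct DNA binding, and proposes that it modulates FOXO1 and does not only inhibit it. The sample labels give the AS1842856 concentration as 200 nM and the methods of the study give a higher one, and this was not resolved here. Both groups come from a single cell line in culture, no genetic change of FOXO1 is part of these 6 libraries, and no label speaks of low oxygen. The study calls the 3 libraries of each group biological replicates.

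In cells with enough oxygen, the EGLN enzymes hydroxylate prolines of the HIF alpha subunits, and VHL then binds the alpha subunit as part of a ubiquitin ligase that sends it to the proteasome. When oxygen is low the alpha subunits are spared, pair with ARNT and bind DNA at sites with the letters ACGTG or GCGTG. HIF1A and EPAS1 share many targets, with HIF1A known for glycolytic enzymes and EPAS1 for functions in endothelium and kidney cancer. The main control of HIF alpha is on the protein, which these libraries do not measure.

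The libraries held between 15289500 and 22981832 counts. The defining markers of the line were as follows. All 7 mesenchymal genes of a fixed list were detected (summed level 4383 to 4515 CPM in DMSO and 3843 to 3915 with AS1842856). They did not move together. FN1 and ZEB1 were higher with AS1842856 (log2 fold changes 1.13 and 0.50) and the other 5 were lower, AXL the most (-1.65). Of 6 luminal and epithelial genes, ESR1, PGR and CDH1 had at most 4 counts and EPCAM at most 8 in any library, FOXA1 was near 1 CPM, and GATA3 was present, against its label as a luminal marker, at 50.9 ± 2.47 CPM in DMSO and 61.7 ± 4.23 after AS1842856 (SD over 3 libraries). Of 4 endothelial genes, PECAM1, CDH5 and VWF had at most 3 counts in any library, and the list summed to at most 1.05 CPM in DMSO and 1.74 with AS1842856. The 4 blood genes summed to 1.02 to 2.02 CPM in DMSO and 3.48 to 4.66 with AS1842856, most of it PTPRC, while CD3E and HBB had no counts. The part of these markers in the results was not tested, and in bulk RNA fewer cells of a kind cannot be told apart from less RNA per cell. CPM is the count scaled to a common library size by the TMM method, and it compares 1 gene between libraries. FPKM is also divided by gene length and was used to compare genes with each other.

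Of the 10 members, 8 passed the filter on low counts. The other members, EGLN3 and CA9, had at most 7 counts in any library. By the quasi-likelihood test of edgeR (Benjamini-Hochberg threshold 0.05), 4 members were higher with AS1842856 (HIF1A, ARNT, VEGFA and CA12) and 2 were lower (EPAS1 and ADM), where 56.0% of the 14338 genes tested were called, 27.6% higher and 28.4% lower. EGLN1 and VHL were not called. The 2 groups of libraries had separate ranges in 7 of the 8 tested members, as they had in 59.9% of all genes tested. These shares are given as a description, since the contrast chose the members. The median log2 fold change of the 8 tested members was 0.11, and that of all genes tested was 0.0030.

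**Figure D1:**
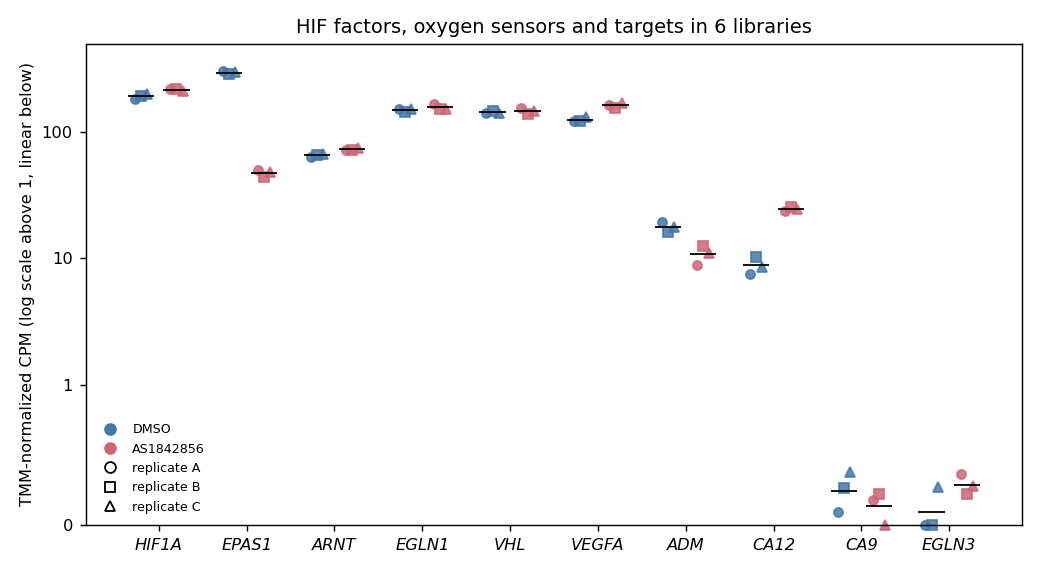
TMM-normalized CPM of the 10 members in each library (axis logarithmic above 1 and linear below), with DMSO in blue, AS1842856 in red, a symbol for each replicate letter and a bar at each group mean. EPAS1 lies near 296 CPM in DMSO and near 47.4 with AS1842856, CA12 lies higher and ADM lower with AS1842856, and CA9 and EGLN3 stay below 0.4 CPM.

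EPAS1 (ENSG00000116016, GRCh38 chromosome 2 from 46293667 to 46386703, plus strand) encodes the alpha subunit of HIF-2. Its level was 304, 288 and 298 CPM in DMSO replicates A, B and C, and 49.9, 44.1 and 48.2 CPM with AS1842856. The lowest DMSO library was thus several times the highest AS1842856 library, and the libraries within a group lay close together. The group means were 296 ± 7.96 and 47.4 ± 2.96 CPM (SD of 3 libraries each), which is a log2 fold change of -2.65 (standard error 0.04), or a 6.28-fold lower level. By the size of the fall EPAS1 stood at place 104 of the 14338 genes tested, which is a description, since this fall chose the members. No other annotated gene with counts overlapped it. The RefSeq promoter of EPAS1 is shown because this gene carries the largest difference of the pathway. The 250 bases before its RefSeq start, chr2:46297157-46297406 on the plus strand (GRCh38.p14), are 80.8% G or C. They lie inside the gene as GENCODE 29 draws it, whose first transcript starts further upstream.
EPAS1: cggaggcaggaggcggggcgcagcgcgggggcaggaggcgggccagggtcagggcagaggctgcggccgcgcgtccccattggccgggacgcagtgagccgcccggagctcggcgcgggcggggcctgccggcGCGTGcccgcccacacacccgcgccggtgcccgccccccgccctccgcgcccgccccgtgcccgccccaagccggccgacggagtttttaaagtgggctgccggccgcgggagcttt
The capitals mark the only HIF core (GCGTG, at position -117 counted from the start). The FOXO element GTAAACA was not found on either strand of this window, and 2.98% of all 35116 RefSeq promoters of the same length hold it.

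HIF1A (ENSG00000100644, chromosome 14 from 61695513 to 61748259, plus strand) encodes the alpha subunit of HIF-1. It stood at 183, 195 and 200 CPM in DMSO and at 220, 219 and 214 CPM with AS1842856. All 3 treated libraries were above the DMSO libraries, by a small margin. The means were 193 ± 8.84 and 218 ± 3.54 CPM (SD of 3 libraries each), which is a log2 fold change of 0.18 (standard error 0.04). The antisense gene HIF1A-AS1, which shares 117 exon bases with it, had at most 4 counts. The alpha subunits therefore differed in opposite directions, and by very different amounts.

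By the deposited FPKM, which uses merged exon length, EPAS1 was the highest of the 10 members in DMSO (by coding transcript length it came after VEGFA), at 40.3 ± 1.14 FPKM, and HIF1A followed at 37.1 ± 1.68 FPKM (SD, n = 3), with no overlap between the ranges of the 2 genes. With AS1842856 HIF1A was the highest of the 10 on the FPKM scale at 42.0 ± 0.730 FPKM and EPAS1 was sixth at 6.45 ± 0.405 FPKM. The share of EPAS1 in the sum of HIF1A and EPAS1 was 54.0%, 51.0% and 51.2% in the DMSO libraries and 13.8%, 12.4% and 13.7% in the AS1842856 libraries. This share is a ratio within each library, so library scaling cannot move it. The sum itself was 77.5 ± 1.37 FPKM in DMSO and 48.5 ± 0.832 with AS1842856.

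**Figure D2:**
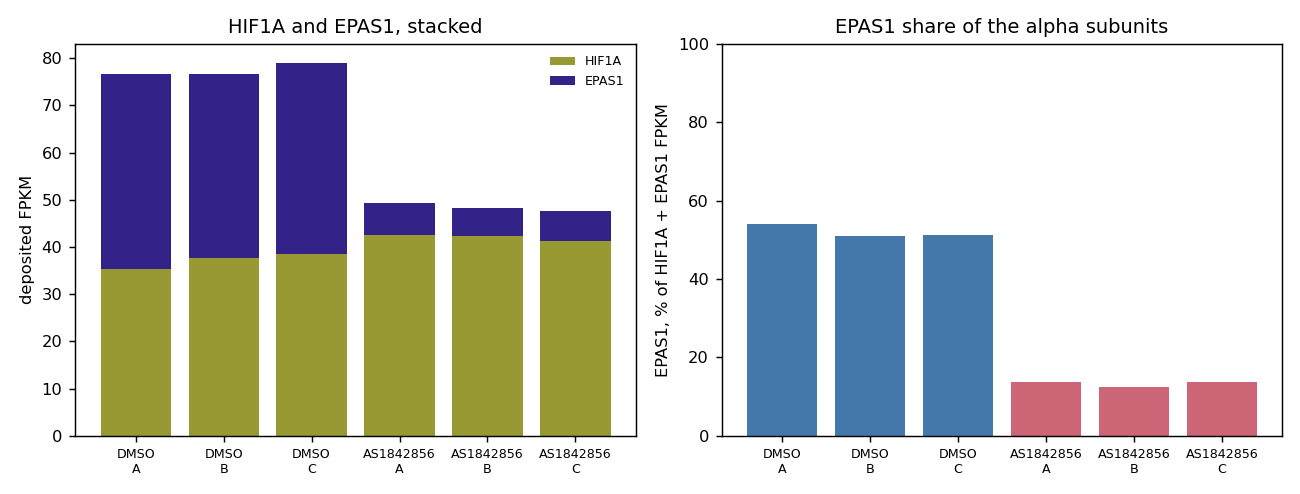
Left, deposited FPKM of HIF1A and EPAS1 stacked for each library; right, EPAS1 as a percentage of their sum, with DMSO in blue and AS1842856 in red. The sum lies near 77.5 FPKM in DMSO and near 48.5 with AS1842856, and the EPAS1 share lies between 51.0% and 54.0% in DMSO and between 12.4% and 13.8% with AS1842856.

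ARNT (ENSG00000143437, chromosome 1 from 150809705 to 150876768, minus strand) encodes the beta subunit that both alpha subunits need, and that the aryl hydrocarbon receptor AHR also uses. It measured 63.8, 65.6 and 67.8 CPM in DMSO and 72.5, 72.1 and 74.6 CPM with AS1842856. The treated libraries were again all above the DMSO libraries, and the log2 fold change was 0.15 (standard error 0.05). Relative to the sum of the alpha subunits, ARNT was at 0.129 ± 0.0020 in DMSO and at 0.230 ± 0.0072 with AS1842856 (ratio of FPKM, SD, n = 3 per group). This ratio holds the fall of EPAS1, which chose the members, in its sum, while ARNT itself differed little. Its size also depends on the gene length used.

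The sensors and VHL showed small or no differences. EGLN1 (PHD2, ENSG00000135766, chromosome 1 from 231363751 to 231425044, minus strand), the main HIF prolyl hydroxylase in most cells, measured 152, 146 and 152 CPM in DMSO and 169, 152 and 153 CPM with AS1842856. Treated replicate A stood apart from the other two treated libraries, and the highest DMSO value almost touched the lowest treated one. The log2 fold change was 0.07 (standard error 0.04), which was not called. VHL (ENSG00000134086, chromosome 3 from 10141008 to 10152220, plus strand) measured 142, 148 and 143 CPM in DMSO and 155, 139 and 148 CPM with AS1842856. The groups overlapped, and the log2 fold change of 0.03 (standard error 0.04) was not called. EGLN3 (PHD3, ENSG00000129521, chromosome 14 from 33924231 to 34462774, minus strand), a hydroxylase that is itself a HIF target in many cells, had 0, 0 and 5 counts in DMSO and 6, 5 and 5 with AS1842856. Its level was too low for a comparison. EGLN1 made up 89.0% ± 0.779 of the summed FPKM of EGLN1, EGLN2 and EGLN3 in DMSO and 90.1% ± 1.38 with AS1842856 (SD of 3 libraries each), and EGLN3 at most 0.193% in any library. EGLN2 shares 2012 exon bases on the same strand with the annotated gene RAB4B-EGLN2, which had no counts. Reads common to both may have been dropped, so the level of EGLN2 and these shares are uncertain. Beside the fall of EPAS1, the ratio of EGLN1 to the sum of the alpha subunits was 0.265 ± 0.0062 in DMSO and 0.446 ± 0.0197 with AS1842856. Like the ARNT ratio, it holds that fall in its sum and depends on the gene length used.

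The target genes did not move together. CA12 (ENSG00000074410, chromosome 15 from 63321378 to 63382161, minus strand), a carbonic anhydrase of the cell surface that hydrates carbon dioxide outside the cell, measured 7.56, 10.2 and 8.61 CPM in DMSO and 23.8, 25.5 and 24.7 CPM with AS1842856. Every treated library was more than double the highest DMSO library. The means were 8.80 ± 1.34 and 24.7 ± 0.866 CPM (SD of 3 libraries each), which is a log2 fold change of 1.51 (standard error 0.10), or 2.84-fold higher. CA9 (ENSG00000107159, chromosome 9 from 35673856 to 35681159, plus strand), a related enzyme widely used as a marker of hypoxia, had 2, 4 and 7 counts in DMSO and 3, 5 and 0 with AS1842856. It shares 643 exon bases with ARHGEF39 on the opposite strand, which had 508 to 730 counts, so even these few reads are uncertain. The best known HIF-induced carbonic anhydrase was thus near the limit of detection in both groups.

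VEGFA (ENSG00000112715, chromosome 6 from 43770184 to 43786487, plus strand), the ligand that drives growth of blood vessels, measured 124, 122 and 131 CPM in DMSO and 165, 156 and 169 CPM with AS1842856. The groups did not overlap, with means of 125 ± 4.75 and 163 ± 6.95 CPM (SD of 3 libraries each) and a log2 fold change of 0.38 (standard error 0.04). ADM (ENSG00000148926, chromosome 11 from 10304680 to 10307397, plus strand), which encodes the vasodilator peptide adrenomedullin, measured 19.3, 16.3 and 17.7 CPM in DMSO and 8.94, 12.5 and 11.1 CPM with AS1842856. All treated libraries were below the DMSO libraries, although they spread widely. The means were 17.8 ± 1.46 and 10.8 ± 1.78 CPM (SD of 3 libraries each), which is a log2 fold change of -0.71 (standard error 0.10). The ratio of VEGFA to ADM was 1.34 ± 0.111 in DMSO and 2.90 ± 0.564 with AS1842856 (ratio of FPKM). These angiogenic ligands thus went opposite ways, but the size of the ratio depends on the gene length used. Per kilobase of the median coding transcript, VEGFA was at 112 and ADM at 14.2 CPM in DMSO. With AS1842856 these levels were 146 and 8.65 CPM per kilobase.

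The promoters of CA12, ADM and CA9 are shown because these targets were higher, lower and nearly silent. Each is the 250 bases before the RefSeq start (GRCh38.p14), with the HIF core in capitals on either strand (CACGT and CACGC are its complements). CA12 is at chr15:63381847-63382096 on the minus strand, ADM at chr11:10304823-10305072 on the plus strand and CA9 at chr9:35673678-35673927 on the plus strand.
CA12: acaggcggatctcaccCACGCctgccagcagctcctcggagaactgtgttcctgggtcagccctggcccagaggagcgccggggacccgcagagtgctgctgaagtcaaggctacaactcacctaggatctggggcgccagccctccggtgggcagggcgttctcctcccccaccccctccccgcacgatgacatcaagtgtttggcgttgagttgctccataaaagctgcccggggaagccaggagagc
ADM: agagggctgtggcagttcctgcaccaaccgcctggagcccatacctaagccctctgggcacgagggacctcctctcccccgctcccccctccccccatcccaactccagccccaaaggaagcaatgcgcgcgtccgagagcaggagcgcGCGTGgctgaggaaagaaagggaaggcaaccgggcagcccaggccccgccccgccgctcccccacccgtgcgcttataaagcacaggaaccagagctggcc
CA9: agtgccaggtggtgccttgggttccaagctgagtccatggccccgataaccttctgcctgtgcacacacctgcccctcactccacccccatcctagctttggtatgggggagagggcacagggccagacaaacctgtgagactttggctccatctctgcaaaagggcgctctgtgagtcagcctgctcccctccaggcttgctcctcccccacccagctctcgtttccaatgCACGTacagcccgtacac
The cores were at position -234 in CA12, -101 in ADM and -18 in CA9, counted from the start. The RefSeq table gave 9 promoters for 8 of the 10 members, with 2 starts for HIF1A and none for VHL and VEGFA. At least 1 HIF core (ACGTG or GCGTG, both strands) was found in 6 of the 9, where 43.2% of all 35116 promoters hold one. None of the 9 held GTAAACA, and none held the E-box CACGTG, which contains the letters of the HIF core. The 9 promoters differ in base composition, from 31.2% to 81.2% G or C, and these matches are letters in a window and not measured binding.

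The order of the members per length changed mainly at EPAS1, which went from first to sixth. In DMSO it ran EPAS1, HIF1A, VHL at 34.0 ± 0.777, EGLN1 at 20.5 ± 0.519, ARNT at 10.0 ± 0.302, VEGFA at 8.64 ± 0.332, ADM at 6.50 ± 0.544 and CA12 at 1.20 ± 0.180 FPKM, with CA9 at 0.144 ± 0.0855 and EGLN3 last (SD, n = 3). The ranges of neighbours in this order did not overlap in DMSO. With AS1842856 it ran HIF1A, VHL, EGLN1, VEGFA, ARNT, EPAS1, ADM, CA12, CA9 and EGLN3. There the ranges of VEGFA and ARNT, of ADM and CA12, and of CA9 and EGLN3 overlapped. The place of VEGFA depends on the length used. The deposited FPKM implies 14.5 kb for VEGFA, near its 14.4 kb of merged exons, whereas its median coding transcript is 1.12 kb. That median is over 24 annotated transcripts of VEGFA, where EPAS1 has 1. The place of VEGFA by this length therefore depends on the annotation, and which transcripts the reads came from was not examined. Divided by the median coding transcript, VEGFA was the highest of the 10 members, at 112 CPM per kilobase in DMSO and 146 with AS1842856, against 57.4 and 9.17 for EPAS1. The share of EPAS1 among the alpha subunits was nearly the same by that length, 53.9% ± 1.65 in DMSO and 14.2% ± 0.796 with AS1842856.

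The other subunits, partners and relatives of HIF were taken from a list of 16 genes, of which 12 were tested, 7 rose and 3 fell (median log2 fold change 0.49). HIF3A and ARNT2, the further alpha and beta subunits, were too low to test. Where 56.0% of all genes tested were called, 27.6% higher and 28.4% lower, these counts and those of the lists that follow are a description. Among genes with a mean of at least 1 CPM the largest rises were in AHR, BHLHE40 and AHRR. NPAS3, at 0.644 CPM on average, rose by 1.39 (standard error 0.46) on the log2 scale. AHR, the receptor for dioxin-like compounds and a partner of ARNT, rose from 55.4 ± 2.01 CPM in DMSO to 197 ± 5.97 CPM (SD of 3 libraries each), which is a log2 fold change of 1.82 (standard error 0.04). BHLHE40 (DEC1), a hypoxia-induced repressor, rose by 1.27 (standard error 0.05) and AHRR, which represses AHR, by 1.09 (standard error 0.04) on the log2 scale. AHRR shares 244 exon bases with PDCD6, whose counts came to 72.5% of its own, and its level is therefore uncertain. The largest falls were in SIM1 (log2 fold change -1.42, standard error 0.07), a further ARNT partner, and in CITED4 (-1.30, standard error 0.11) and CITED2 (-0.54, standard error 0.04), which compete with HIF alpha for the coactivators EP300 and CREBBP. CREBBP rose by 0.14 and EP300, at 0.09, was not called.

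Among 16 genes of oxygen sensing and HIF turnover, all were tested, 3 rose, 5 fell and 8 were not called (median 0.0021), where 56.0% of all genes tested were called. EGLN2, the third hydroxylase (log2 fold change -0.12), HIF1AN, the asparagine hydroxylase FIH (0.06), and the VHL complex genes ELOC (-0.05) and CUL2 (0.07) were not called. The largest fall was that of HSP90AA1, a chaperone that holds HIF alpha, from 3231 ± 134 to 2050 ± 38.3 CPM (SD of 3 libraries each), which is a log2 fold change of -0.66. P4HTM, a membrane prolyl hydroxylase, fell by 0.38 and RBX1, the ring subunit of the VHL ligase, by 0.23 on the log2 scale. RACK1 (0.42), SIAH2 (0.20) and ELOB (0.19) rose, and RACK1 is known to promote degradation of HIF alpha without oxygen sensing. P4HTM and ELOB share exon bases with the more abundant genes WDR6 and SRRM2, and EGLN2 shares 2012 with RAB4B-EGLN2 on the same strand.

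Of 20 glycolysis genes induced by HIF, 19 were tested, 6 rose and 9 fell, with a median of -0.04, where 27.6% of all genes tested rose and 28.4% fell. SLC16A3 (MCT4), the lactate exporter, fell from 20.0 ± 0.858 CPM in DMSO to 4.74 ± 0.973 CPM (SD of 3 libraries each), which is a log2 fold change of -2.06 (standard error 0.12), but it shares 482 exon bases with the more abundant CSNK1D on the opposite strand. ALDOC fell by 1.57 (standard error 0.23) on the log2 scale. SLC2A1 (GLUT1), the main glucose transporter of hypoxic cells, dropped from 223 ± 7.34 CPM to 109 ± 3.71 CPM, with a log2 fold change of -1.04 (standard error 0.04). The rises were smaller and were led by HK1 (0.52), PFKP (0.40) and GPI (0.24). LDHA (-0.04) was not called, and PGK1 rose by 0.09.

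Of 36 other hypoxia-induced genes, 32 were tested, 8 rose and 15 fell, with a median of -0.16 beside 0.0030 for all genes tested, of which 27.6% rose and 28.4% fell. LOX, which crosslinks collagen, fell from 209 ± 4.27 CPM in DMSO to 42.8 ± 2.01 CPM (SD of 3 libraries each), which is a log2 fold change of -2.29 (standard error 0.05). PPFIA4 fell by 1.68 (standard error 0.19) and BNIP3L (NIX), a receptor for mitophagy, by 1.57 (standard error 0.05) on the log2 scale. Rises were led by STC1, a secreted glycoprotein, at 0.96 (standard error 0.05), and by NDRG1 (0.79, standard error 0.21) and TMEM45A (0.79, standard error 0.12). Genes that serve as hypoxia indicators in many cells went different ways, with BNIP3 at -0.40 and DDIT4 at 0.51, both called. LOX shares 138 exon bases with SRFBP1 on the opposite strand, which had 21.3% as many counts. Part of such a list was known to lean downward in these libraries from an earlier look, so its count adds no independent support.

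Of 10 genes reported to prefer HIF-2, listed from general knowledge, 6 were tested, 2 rose and 2 fell. Their median was -0.13, where 56.0% of all genes tested were called. Whether they prefer HIF-2 in BT549 cells was not tested. CYBRD1, an iron reductase, fell from 62.5 ± 2.60 CPM in DMSO to 29.1 ± 1.48 CPM and SOD2, the mitochondrial superoxide dismutase, from 327 ± 11.2 to 143 ± 8.10 CPM (SD of 3 libraries each), or log2 fold changes of -1.10 and -1.19. SOD2 is also a known FOXO1 target that the study names from these libraries, and it shares exon bases with WTAP on the opposite strand, which had 43.9% as many counts. CCND1 (cyclin D1) rose from 202 ± 10.8 CPM in DMSO to 644 ± 11.3 CPM and MMP14, a membrane metalloproteinase, from 720 ± 11.1 to 2158 ± 54.8 CPM, with log2 fold changes of 1.68 and 1.58. The iron importer SLC11A2 (-0.02) was not called. Of these genes, EPO and TGFA had at most 3 counts in any library.

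For the ligands VEGFA and ADM, 16 relatives and receptors were listed, of which 10 were tested, 2 rose and 5 fell (median -0.43), where 27.6% of all genes tested rose and 28.4% fell. The classical VEGF receptor FLT1 had no counts in any library, KDR had at most 6 and FLT4 at most 4. The coreceptors were expressed and differed in direction. NRP1 rose from 214 ± 7.32 CPM in DMSO to 327 ± 4.58 CPM and NRP2 fell from 124 ± 5.92 CPM in DMSO to 48.9 ± 0.995 CPM (SD of 3 libraries each), or log2 fold changes of 0.61 and -1.35. VEGFC, the lymphatic ligand, fell by 1.05, and PGF by 0.51 on the log2 scale. RAMP2, called lower, and ADM5, called higher, were under 1 CPM on average and are uncertain. RAMP2 shares 412 exon bases with RAMP2-AS1 on the opposite strand, and ADM5, whose groups overlapped, shares 366 with the far more abundant PRMT1 on the same strand. The receptor subunit CALCRL, which binds adrenomedullin together with RAMP2 or RAMP3, had at most 5 counts, and RAMP3 had none in any library. RAMP1, which also pairs with CALCRL, fell from 25.6 ± 1.18 CPM in DMSO to 9.97 ± 0.787 CPM, a log2 fold change of -1.36.

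Of 18 other carbonic anhydrases and pH regulators, 10 were tested, 6 rose and 1 fell (median 0.42), where 27.6% of all genes tested rose and 28.4% fell. BSG was among those called higher, at 0.08 on the log2 scale, although its groups overlapped. SLC4A4, a sodium bicarbonate cotransporter, rose from 3.42 ± 0.323 CPM in DMSO to 18.8 ± 2.22 CPM (SD of 3 libraries each), which is a log2 fold change of 2.45 (standard error 0.13). The carbonic anhydrases CA2 and CA13 of the cytosol rose by 1.20 (standard error 0.17) and 0.77 (standard error 0.10). CA8, which fell by 2.36 on the log2 scale, was under 1 CPM on average. The lactate carrier SLC16A1 (MCT1) rose by 0.57 on the log2 scale.

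**Figure D3:**
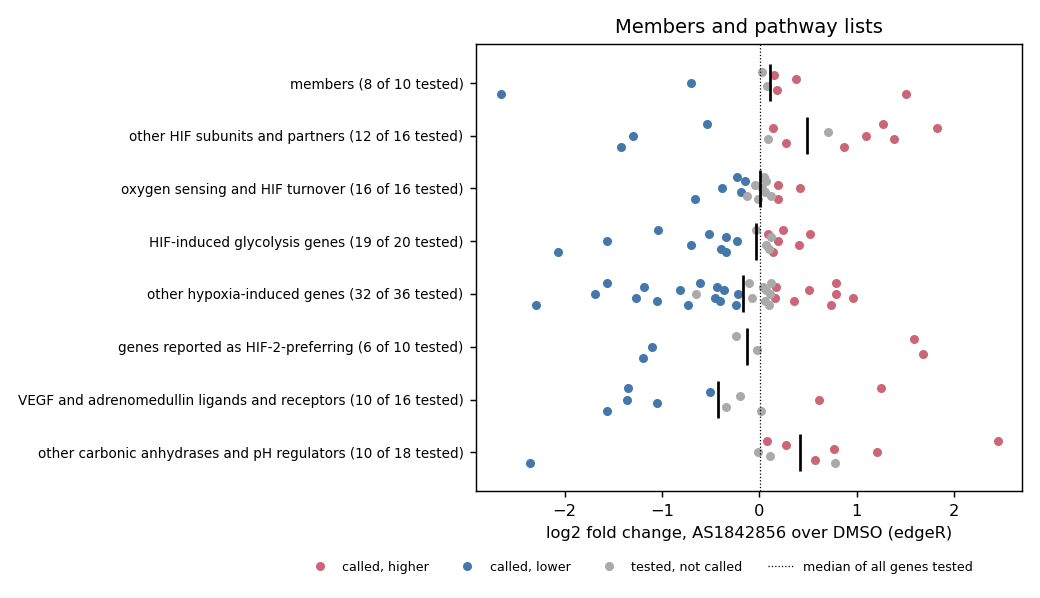
Log2 fold change (AS1842856 over DMSO, edgeR) of every tested gene of the members and of 7 pathway lists, with called genes in red (higher) or blue (lower), others in grey, a black bar at each list's median and a dotted line at the median of all genes tested. List medians run from -0.43 for VEGF and adrenomedullin ligands and receptors to 0.49 for other HIF subunits and partners, and EPAS1 at -2.65 is the lowest point of all lists.

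The 5 genes whose profile over the 6 libraries was closest to that of EPAS1 were CXCL1, TMEM173, RASL11A, CABLES1 and PDE1C. Closeness was the root mean square difference of log2(CPM + 0.5), each profile centred on its DMSO mean, among 10404 tested genes with a mean of at least 5 CPM. It ran from 0.0926 for CXCL1, a chemokine that fell from 123 ± 3.38 CPM in DMSO to 17.9 ± 1.19 CPM (SD of 3 libraries each), to 0.126 for PDE1C, a phosphodiesterase. TMEM173 encodes STING, a sensor of innate immunity, and had 13.2 ± 0.140 CPM in DMSO and 1.62 ± 0.10 with AS1842856. Its log2 fold change by edgeR was -3.02, beside -2.65 for EPAS1. At such low levels the 0.5 CPM added shrinks the difference, so the place of TMEM173 depends on it. None of the 5 is a member or on the pathway lists. With 2 groups of 3, such likeness rests almost wholly on the size of the difference between the groups.

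In fits that omitted 1 library at a time, the 6 called members kept their direction, and VHL, which was not called, turned from 0.03 to -0.01 without AS1842856 replicate A. The log2 fold change was between -2.69 and -2.60 for EPAS1, between 1.40 and 1.61 for CA12, between -0.83 and -0.59 for ADM and between 0.35 and 0.41 for VEGFA. HIF1A stayed between 0.14 and 0.20 and ARNT between 0.13 and 0.17. The same 6 members were called in each of these fits and in the 9 fits with another scaling, filter, unit, tool or block. For CA12, which is low, the value on the log2(FPKM + 1) scale was 0.99.

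**Figure D4:**
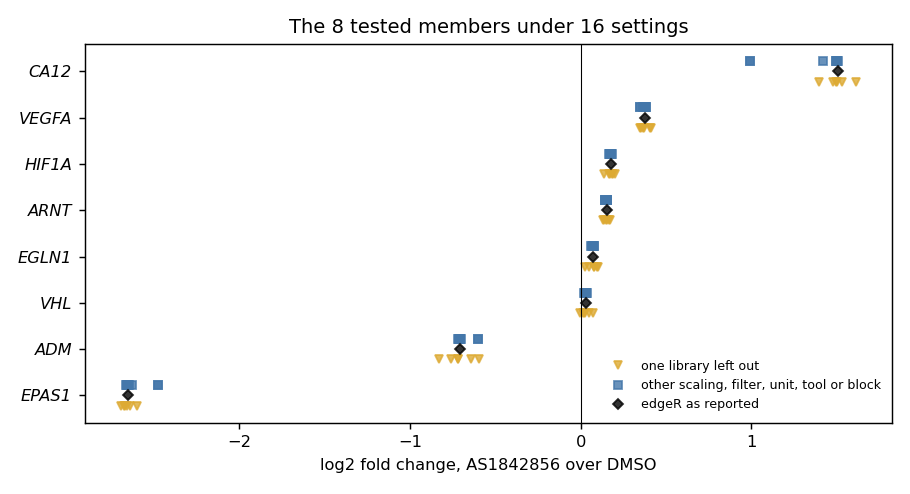
Log2 fold change (AS1842856 over DMSO) of the 8 tested members as reported (black), with one library left out (yellow) and under 9 other settings (blue). EPAS1 and ADM stay below 0 and CA12, VEGFA, HIF1A and ARNT above 0 throughout, while EGLN1 and VHL lie close to 0.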

How the data were processed

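RNA-Seq of 6 libraries of BT549 cells was used, grouped by the treatment in the sample labels. The authors deposited raw counts per gene, without normalization, and FPKM values for each library. Reads were mapped with STAR according to the study's methods, whereas the submitters' processing notes name CASAVA, Bowtie 0.12.2 and GRCh38. The annotation, counting tool and use of strand are not given in the sources used here, so genes that overlap on opposite strands may share reads. All 58735 identifiers were found in GENCODE 29, which gave symbols and positions.

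The tests used edgeR 4.0.16 under R 4.3.3. The filter was filterByExpr (minimum count 10, minimum total 15), after which 14338 genes with 99.9% of the counts remained. Scaling was by TMM (factors 0.995 to 1.01), and the groups were compared with glmQLFit and glmQLFTest without a block, with Benjamini-Hochberg adjustment over all genes and a threshold of 0.05. The standard error was the log2 fold change divided by the square root of F. The common biological coefficient of variation was 0.0374 at depths of 15289500 to 22981832 counts, and p-values measure only the spread between these libraries. Replicate pairs differed by more than sampling noise (chi-square per degree of freedom 2.36 to 3.27), so each library was counted once. DESeq2 1.42.0 and limma 3.58.1 were used as alternatives, and the scripts were first tested on simulated data.

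The members and lists were chosen with earlier results of these data known. The 10 members were named, and from each list the 3 called genes with the largest rise and fall among those with a mean of at least 1 CPM, with others named for their role after their values were seen. The level per coding transcript length was added after the data were seen. Promoters were taken from RefSeq (GRCh38.p14).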

Additional observations from a re-analysis of the deposited data

How the results depend on the processing

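The count of 8029 genes called ran from 6523 (limma on log2(FPKM + 1) with no filter) to 8030 (size factors of DESeq2 in edgeR) under the 9 alternatives that kept all libraries, and from 7427 to 7678 with a library left out. DESeq2 with its own size factors called 6791. With the replicate letter as a block it was 7862, and the replicate block changed no call among the members. The letters were not taken as a pairing, since the deviations of same-letter libraries from their group means correlated at -0.0120 to 0.0420, none over 0.1. Higher genes made up a share of the calls that stayed between 47.2% and 50.3%. The count of 6 members called was the same in all 15 alternatives, and the counts in the 7 pathway lists stayed within 1.5 times their values. VHL, which was not called, was at -0.01 on the log2 scale in the lowest of the fits with a library left out, against 0.03 with all libraries. The level of VEGFA per kilobase in DMSO was 8.64 FPKM by merged exons and 112 by the median coding transcript, an alternative chosen after seeing the data, and the cause of the difference is the length itself. CA9 and EGLN3 were too low for a comparison, with at most 7 counts in any library. Without a filter on low counts they were tested but not called.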
